A study of Mus musculus with 24 samples.

Results

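The genes described here are 10 genes of mouse cone photoreceptors, among 36595 genes listed for the retina. Their rows were found by gene symbol, and all 10 were also among the 19173 genes that passed the filter on low counts. RNA from the whole retinas of 12 mouse pups was sequenced, with 3 mice in each of 4 groups. WT-RA were WT pups in room air, WT-O2 were WT pups in hyperoxia, and KO-RA and KO-O2 were GSDMD-KO pups in room air and in hyperoxia. The mice were C57/B6, and the GSDMD-KO line carries a global CRISPR deletion in exon 5 of Gsdmd, so that every cell type of the eye lacks the intact gene. Hyperoxia was 75% oxygen from postnatal day 7 to postnatal day 12, followed by recovery in room air until collection on postnatal day 18, the mouse model of oxygen-induced retinopathy. Depth was 24863257 to 29093035 estimated counts per retina.

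Cones are the photoreceptors of daylight and colour vision, and in the mouse they are far fewer than rods. Light is caught by a cone opsin, which activates the cone transducin (alpha subunit Gnat2, beta subunit Gnb3). Transducin then releases the cone phosphodiesterase (catalytic subunit Pde6c) from its inhibitory subunit Pde6h. Cyclic GMP falls, and the channel formed by Cnga3 and Cngb3 closes. Arr3, the cone arrestin, binds the activated opsin and ends the response. Guca1a encodes a calcium sensor that turns guanylate cyclase back on when calcium falls. The mouse has an S opsin (Opn1sw), sensitive to short wavelengths, and an M opsin (Opn1mw), sensitive to middle wavelengths, and many of its cones make both in proportions that vary across the retina. Guca1a is also used by rods, and Gnb3 is also used by ON bipolar cells, the neurons that photoreceptors contact.

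The 250 bases before the transcription start are shown for the opsins and for Arr3 and Guca1a, since they set the opsins beside 2 genes that fell with hyperoxia in WT. Of the other genes called below, Gnb3 and Cngb3, no promoter is shown. The sequences are from RefSeq on GRCm38.p6, 5′ to 3′, and capitals mark TAATCC or TAATCT on either strand, the core recognised by the photoreceptor factor CRX. The windows were chr6:29380514-29380763 on the minus strand for Opn1sw, chrX:74127216-74127465 on the plus strand for Opn1mw, chrX:100605247-100605496 on the plus strand for Arr3 and chr17:47400607-47400856 on the minus strand for Guca1a.
Opn1sw: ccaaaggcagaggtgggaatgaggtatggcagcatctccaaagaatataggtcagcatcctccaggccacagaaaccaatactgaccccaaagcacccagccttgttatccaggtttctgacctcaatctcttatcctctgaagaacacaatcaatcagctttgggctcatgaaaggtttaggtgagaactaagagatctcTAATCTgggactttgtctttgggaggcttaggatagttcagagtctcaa
Opn1mw: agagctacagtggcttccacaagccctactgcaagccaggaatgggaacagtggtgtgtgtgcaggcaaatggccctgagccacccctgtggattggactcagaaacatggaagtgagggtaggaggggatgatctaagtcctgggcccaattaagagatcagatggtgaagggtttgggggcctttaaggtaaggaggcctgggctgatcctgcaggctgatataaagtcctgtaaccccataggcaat
Arr3: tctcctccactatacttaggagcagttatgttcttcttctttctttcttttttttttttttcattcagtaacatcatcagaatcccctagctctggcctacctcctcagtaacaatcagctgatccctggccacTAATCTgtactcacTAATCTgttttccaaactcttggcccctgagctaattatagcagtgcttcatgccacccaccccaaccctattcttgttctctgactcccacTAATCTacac
Guca1a: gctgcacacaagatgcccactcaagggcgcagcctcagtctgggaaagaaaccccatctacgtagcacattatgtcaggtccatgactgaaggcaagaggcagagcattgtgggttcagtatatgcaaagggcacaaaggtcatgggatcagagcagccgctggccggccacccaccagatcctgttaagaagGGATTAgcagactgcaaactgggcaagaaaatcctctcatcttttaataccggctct
Guca1a had GGATTA, the reverse complement of TAATCC, beginning 57 bases before its RefSeq start, and 6.25% of the 32817 mouse promoter windows of this length held TAATCC on either strand. Arr3 had TAATCT at 3 places, 116, 102 and 10 bases before the start, and Opn1sw had it at 1 place, 49 bases before the start, where 7.30% of windows held TAATCT on either strand. The Opn1mw window held neither sequence. It had TATAAA, found on either strand in 12.4% of windows. AGGTCA, a half-site of nuclear receptors, was found on either strand at 2 places in the Opn1sw window and at 1 in the Guca1a window, and in 14% of all windows. Of the windows not shown, that of Gnat2, a gene called in no contrast, held GGATTA beginning 19 bases before the start. Those of Pde6h and Cnga3 held neither TAATCC nor TAATCT on either strand. Whether these sequences relate to the changes below was not tested.

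Some libraries stood apart from the others before any comparison. Gsdmd, the targeted gene, was at 4.08, 0.419 and 2.70 CPM (counts scaled to a library of 1000000, with TMM scaling factors) in mice 1, 2 and 3 of WT-RA, at 5.70, 2.90 and 3.85 in WT-O2, at 0.980, 0.774 and 0.636 in KO-RA and at 1.11, 1.44 and 2.95 in KO-O2. The library labelled WT-RA mouse 2 was below all 6 libraries labelled GSDMD-KO, and the library labelled KO-O2 mouse 3 was above WT-O2 mouse 2. Reads outside the deleted part can remain in GSDMD-KO mice, and the fit gave log2 fold changes of -1.58 (standard error, SE, 0.65) in room air and -1.17 (SE 0.63) in hyperoxia, with adjusted p = 0.346 and 0.482 in edgeR. The 22 genes of a lens list held 4.47% of the counts in WT-RA mouse 2, 11.7% in WT-RA mouse 3 and 7.79% in KO-RA mouse 3, against at most 0.0533% in the other 9 retinas. A list of 12 retinal pigment epithelium genes held up to 0.261% of counts in KO-RA (the highest in mouse 3) and at most 0.0611% in the other groups. Each called result for a cone gene below is therefore also given without the 3 lens-rich retinas, which leaves 1 mouse in WT-RA that is assumed to vary like the other groups, and without both libraries whose Gsdmd went against the label.

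Cone genes were readily detected in all 12 retinas. In the GENCODE annotation of GRCm38, the exons of Opn1sw overlap those of Calu on the other strand, and those of Pde6h overlap Arhgdib, so that reads of these pairs may not be separable. The 4 genes called below lie at chr17:47394558-47400584 (Guca1a, minus strand, 4 exons), chrX:100605497-100618493 (Arr3, plus strand, 17 exons), chr6:124834240-124840275 (Gnb3, minus strand, 10 exons) and chr4:19280850-19510623 (Cngb3, plus strand, 18 exons). Per kilobase of transcript, the order by median level over the 12 retinas was Guca1a at 351 CPM per kilobase, Gnb3 at 252, Opn1mw at 230, Opn1sw at 161, Arr3 at 145, Gnat2 at 73.0, Pde6c at 28.5, Cnga3 at 2.41 and Cngb3 at 1.92. Pde6h was left out of this order, because its coding transcript models differ widely in length and the one used, at 5940 bases, sets its level per kilobase. The annotated Opn1sw gene, chr6:29376671-29388468, extends upstream of its RefSeq start, and its place also rests on the model used, at 2410 bases. The ranges of neighbouring genes overlapped between Guca1a and Gnb3 (238 to 647 and 189 to 384 CPM per kilobase) and on down to Arr3 (103 to 235), and again between Cnga3 (2.11 to 3.13) and Cngb3 (1.59 to 2.74). Gnat2 (68.2 to 88.1) lay below Arr3, Pde6c (23.9 to 34.9) below Gnat2 and both channel subunits below Pde6c, without overlap. Gnat2 varied least across the 12 retinas in CPM, with the highest retina 1.29 times the lowest, and Guca1a varied most, at 2.72 times.

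**Figure D1:**
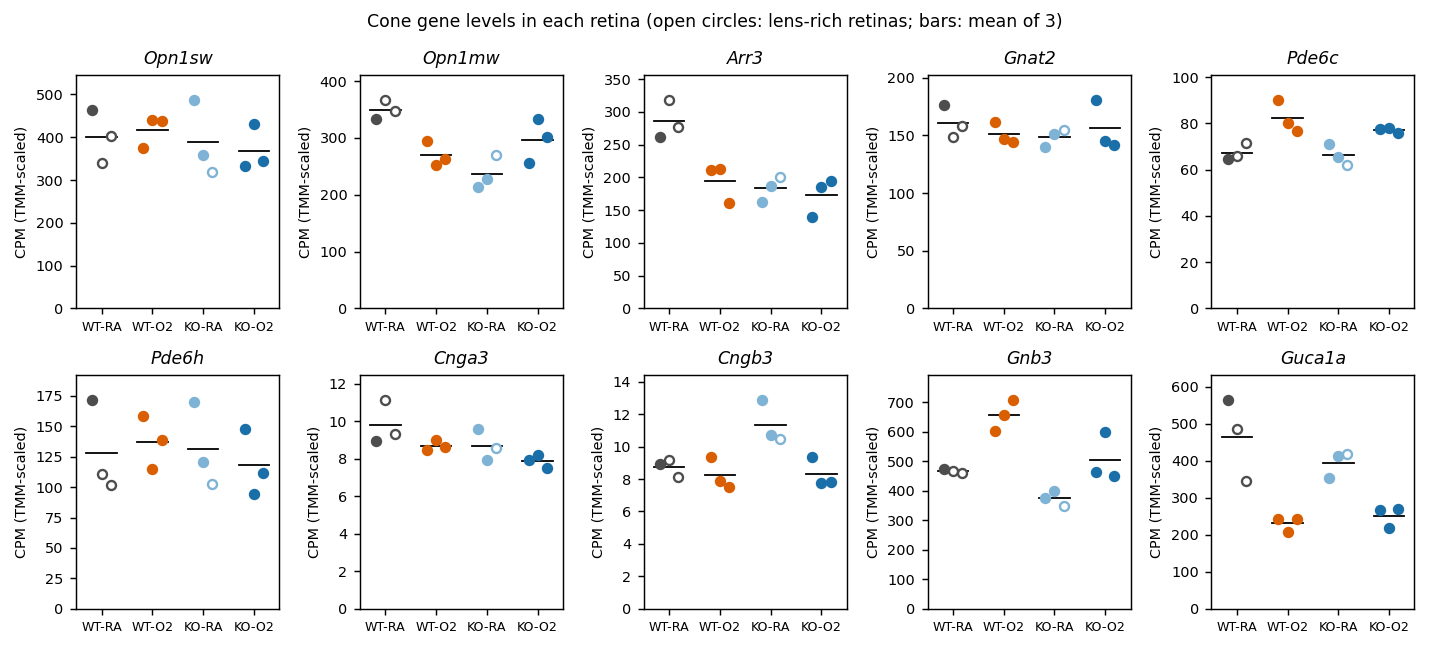
Level of each cone gene in CPM (TMM-scaled, linear axis from 0) in the 12 retinas, by group, with the mean of 3 mice as a bar and lens-rich retinas as open circles. Guca1a sits at 344 to 565 CPM in WT-RA and 208 to 242 in WT-O2, and Arr3 in WT-RA (262 to 319) lies above the other 9 retinas.

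Whether hyperoxia in WT pups had left a trace in cone transcripts on postnatal day 18 was asked by comparing WT-O2 with WT-RA retinas. Of the 10 genes, 1 rose (Gnb3) and 2 fell (Guca1a and Arr3) at an adjusted p under 0.1, where 3.11% of all tested genes rose and 2.05% fell (5.16% in either direction). An unadjusted p under 0.05 was found for 5 of the 10, and for 17.4% of all genes. Guca1a alone of the 10 was called without the lens-rich retinas (4.04% of all genes were) and without both doubtful libraries (1.55%). The median log2 fold change of the 10 genes was -0.09, and that of all genes was within 0.01 of 0. Of the log2 fold changes 4 were above 0 and 6 below. Some were small beside their SE, such as 0.058 (SE 0.173) for Opn1sw and 0.10 (SE 0.24) for Pde6h. Without the lens-rich retinas they were -0.15 and -0.33.

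Guca1a, the calcium sensor of guanylate cyclase, was at 565, 487 and 344 CPM in WT-RA and at 242, 208 and 242 CPM in WT-O2. All 3 WT-O2 retinas were below all 3 WT-RA retinas, and the lowest WT-RA value came from the retina richest in lens transcripts. It fell by 1.01 on the log2 scale (SE 0.17, edgeR adjusted p = 0.0108) and was the one member past a fold change of 2, the threshold of the study, where 0.266% of all genes fell and 1.77% rose this far. Guca1a was called in all 20 alternatives, at -1.30 (adjusted p = 0.0313) without the lens-rich retinas and at -0.98 (adjusted p = 0.0703) without both libraries with doubtful labels, with adjusted p from 1.35e-07 to 0.0703 in edgeR and DESeq2 over all of them.

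Arr3, the cone arrestin, was at 262, 319 and 277 CPM in WT-RA and at 211, 213 and 161 CPM in WT-O2. The groups did not overlap. It fell by 0.55 (SE 0.15, edgeR adjusted p = 0.0835), 0.682 of the WT-RA level. Without the lens-rich retinas the value was -0.43 (adjusted p = 0.334 in edgeR) and without both doubtful libraries -0.47 (adjusted p = 0.258). Leaving out any of the 6 WT retinas, KO-RA mouse 2 or KO-O2 mouse 2 also ended the call in edgeR, with log2 fold changes of -0.62 to -0.42 and adjusted p = 0.110 to 0.263. With library totals in place of TMM the value was -0.32 (adjusted p = 0.235 in edgeR), and the call also ended without a filter on low counts (0.103) and with the 2 groups alone (0.115).

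Gnb3, the transducin beta subunit shared with ON bipolar cells, was at 474, 468 and 461 CPM in WT-RA and at 602, 659 and 709 CPM in WT-O2. The WT-RA retinas lay close together and all WT-O2 retinas lay above them. It rose by 0.49 (SE 0.12, edgeR adjusted p = 0.0577), a fold of 1.41. The value was 0.47 without the lens-rich retinas (adjusted p = 0.226 in edgeR) and 0.49 without both doubtful libraries (adjusted p = 0.179). When any 1 of the 6 WT retinas was left out, the log2 fold change was 0.44 to 0.55 and the adjusted p was 0.101 to 0.182 in edgeR. Of the 13 genes of a bipolar cell list, none rose and 5 fell in the same comparison, among them Grik1 by 0.61, Vsx1 by 0.77 and Cabp5 by 0.41, and 4 fell without the lens-rich retinas. The summed list was at 1472 to 1984 CPM (unscaled) in WT-RA and 1500 to 1708 in WT-O2. Trpm1, the channel of ON bipolar cells, had a mean of 171 CPM (SD 6.76) in WT-RA and 156 CPM (SD 23.6) in WT-O2. The part of bipolar cells in the Gnb3 values was not tested.

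The other 7 genes were not called in WT. Pde6c, the catalytic phosphodiesterase subunit, was at 64.7, 65.8 and 71.5 CPM in WT-RA and 90.3, 79.99 and 76.9 in WT-O2, with a log2 fold change of 0.29 (SE 0.09, edgeR adjusted p = 0.107). In edgeR it was called with library totals (0.53, adjusted p = 0.0188, where the median of all genes was 0.24), with lens genes removed (0.30, adjusted p = 0.0956) and without WT-RA mouse 3 (0.34, adjusted p = 0.0861). M opsin was at 333, 367 and 347 CPM in WT-RA and 294, 252 and 262 in WT-O2, with a log2 fold change of -0.37 (SE 0.12, edgeR adjusted p = 0.138). Neither gene's groups overlapped, so that the groups were apart for 5 of the 10 genes, and they were apart for 24% of all tested genes. By DESeq2, both had an adjusted p under 0.1 (0.0181 for Pde6c and 0.0338 for Opn1mw), which made 5 genes of 10 where DESeq2 called 9.94% of all genes. S opsin (401 ± 61.7 and 418 ± 36.2 CPM, SD, n = 3), Gnat2 (161 ± 14.3 and 151 ± 9.08), Pde6h (128 ± 38.2 and 137 ± 21.8), Cnga3 (9.80 ± 1.17 and 8.70 ± 0.283) and Cngb3 (8.75 ± 0.545 and 8.23 ± 0.986) differed between WT-RA and WT-O2 by less than the larger SD of each pair. For Gnat2 and Cnga3 the difference was more than the smaller SD. In bulk RNA, fewer cones and less RNA per cone cannot be told apart. Rods also use Guca1a, and their part in its values was not tested in either genotype.

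**Figure D2:**
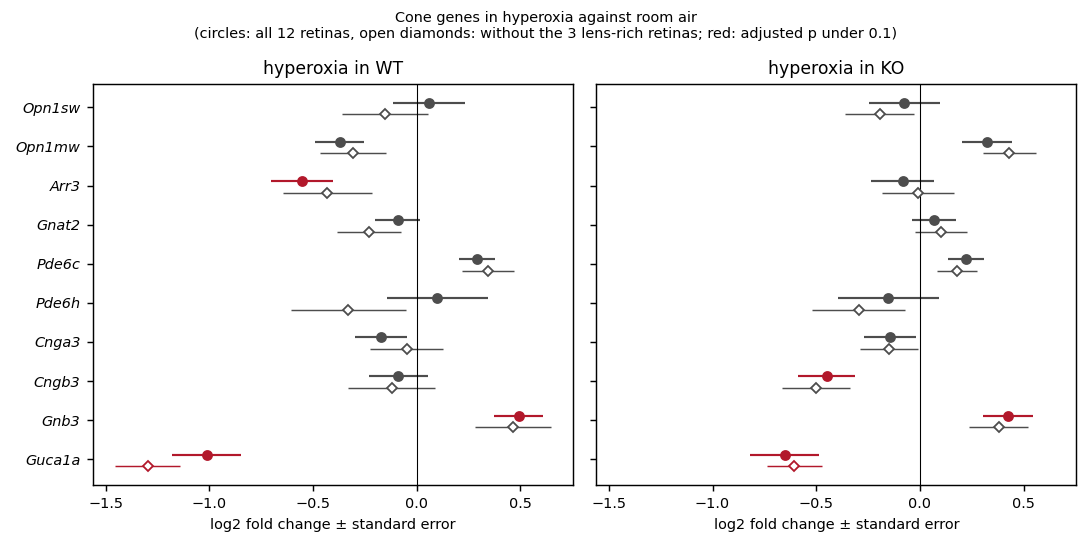
Log2 fold change (x axis, ± standard error) of the 10 cone genes in hyperoxia against room air, in WT on the left and GSDMD-KO on the right, from all 12 retinas (circles) and without the 3 lens-rich retinas (open diamonds), in red where the adjusted p was under 0.1. Guca1a lies at -1.01 in WT and -0.65 in GSDMD-KO, Gnb3 at 0.49 and 0.43, and the other red circles are Arr3 in WT and Cngb3 in GSDMD-KO.

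The same question was asked in GSDMD-KO pups by comparing KO-O2 with KO-RA. Again 1 gene rose (Gnb3) and 2 fell (Guca1a and Cngb3), where 4.38% of all genes rose and 3.44% fell (7.82% in either direction). An unadjusted p under 0.05 was found for 5 of the 10, and for 20.3% of all genes. Guca1a alone of the 10 was called without the lens-rich retinas (3.56% of all genes were), and without both doubtful libraries none was by edgeR (3.55% of all genes were). The median log2 fold change of the 10 genes was -0.08. No member reached a fold change of 2, which 1.64% of all genes did upwards and 0.553% downwards.

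Guca1a was at 352, 414 and 417 CPM in KO-RA and at 266, 218 and 269 CPM in KO-O2. Every KO-O2 retina was below every KO-RA retina. It fell by 0.65 (SE 0.17, edgeR adjusted p = 0.0535), to 0.637 of the KO-RA level. Without the lens-rich retinas the value was -0.61 (adjusted p = 0.0740 in edgeR), and without both doubtful libraries it was -0.70 (adjusted p = 0.132). The call was lost when KO-RA mouse 2, KO-RA mouse 3, KO-O2 mouse 2 or KO-O2 mouse 3 was left out, with log2 fold changes of -0.70 to -0.56 and adjusted p = 0.102 to 0.218 in edgeR.

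Gnb3 was at 376, 401 and 349 CPM in KO-RA and at 463, 598 and 450 CPM in KO-O2. The groups did not overlap, and KO-O2 mouse 2 was well above the others. It rose by 0.43 (SE 0.12, edgeR adjusted p = 0.0750). The value was 0.38 without the lens-rich retinas (adjusted p = 0.231 in edgeR), 0.50 without both doubtful libraries (adjusted p = 0.113) and 0.28 without KO-O2 mouse 2 (adjusted p = 0.266). Leaving out KO-RA mouse 1, 2 or 3, WT-RA mouse 2, WT-O2 mouse 2 or WT-O2 mouse 3 also ended the call, with adjusted p from 0.101 to 0.201 in edgeR. Of the 13 bipolar genes 1 rose and 3 fell in this comparison. Among those that fell were Grik1 (-0.495 on the log2 scale, edgeR adjusted p = 0.0223) and Scgn (-0.562, adjusted p = 0.0439). Trpm1, the channel of ON bipolar cells, rose by 0.56 (edgeR adjusted p = 0.0418, or 0.104 without the lens-rich retinas), and the summed list was at 1811 to 1930 CPM (unscaled) in KO-RA and 1992 to 2024 in KO-O2. Nyx, another gene of the list, went from 8.95 ± 0.858 CPM in KO-RA to 5.98 ± 0.618 in KO-O2 (SD, n = 3). The median log2 fold change of the 13 genes was -0.18, or -0.25 without the lens-rich retinas. The part of bipolar cells in these Gnb3 values was not tested.

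Cngb3, the modulatory subunit of the cone channel, was at 12.9, 10.7 and 10.5 CPM in KO-RA and at 9.37, 7.73 and 7.84 CPM in KO-O2. KO-RA was the highest of the 4 groups for this gene, and its 3 retinas lay above all 9 others. The fall of 0.45 (SE 0.14) was close to the threshold, with an edgeR adjusted p of 0.0995. It was called neither without the lens-rich retinas (-0.50, adjusted p = 0.182 in edgeR) nor without both doubtful libraries (-0.41, adjusted p = 0.267). In 11 of the 12 fits that left out 1 retina, all but that without KO-O2 mouse 1, the call was lost, with log2 fold changes of -0.51 to -0.35 and adjusted p = 0.105 to 0.306. Its channel partner Cnga3 was at 8.68 ± 0.823 CPM in KO-RA against 7.86 ± 0.340 in KO-O2 (SD, n = 3), with a log2 fold change of -0.14 (SE 0.13).

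M opsin was higher in KO-O2 than in KO-RA in its mean, at 255, 333 and 302 against 214, 228 and 270 CPM. The groups overlapped between KO-O2 mouse 1 and KO-RA mouse 3. Its log2 fold change was 0.33 (SE 0.12, edgeR adjusted p = 0.159), and without KO-O2 mouse 1 it was 0.42 and called (adjusted p = 0.0709). Pde6c was at 77.2 ± 1.26 CPM in KO-O2 and 66.2 ± 4.58 in KO-RA (SD, n = 3), without overlap, and was not called (log2 fold change 0.22, SE 0.09, edgeR adjusted p = 0.177). By DESeq2 both had an adjusted p under 0.1 (0.0626 and 0.0840), which made 5 of the 10 genes, with 14.1% of all genes called. The groups were apart for 4 of the 10 genes and for 26.2% of all genes. For S opsin, Arr3, Gnat2 and Pde6h the log2 fold changes lay between -0.15 and 0.07 with adjusted p from 0.786 to 0.859 in edgeR.

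The effect of GSDMD deficiency in room air was read from KO-RA against WT-RA. No cone gene was called by edgeR, where 0.00522% of all genes were called lower (1 gene) and 0% higher. An unadjusted p under 0.05 was found for 4 of the 10, Opn1mw, Arr3, Gnb3 and Cngb3, and for 12.7% of all genes. M opsin was at 333, 367 and 347 CPM in WT-RA and 214, 228 and 270 in KO-RA. All KO-RA retinas were below all WT-RA retinas, with a log2 fold change of -0.56 (SE 0.12, edgeR adjusted p = 0.238). Arr3 was at 162, 187 and 201 CPM in KO-RA, below the 262 to 319 of WT-RA, with a log2 fold change of -0.64 (SE 0.15, edgeR adjusted p = 0.238).

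Gnb3 had a log2 fold change of -0.32 (SE 0.12, edgeR adjusted p = 0.326) and Cngb3 one of 0.38 (SE 0.14, adjusted p = 0.321) in the same comparison. The groups did not overlap for these 4 genes, as for 17.7% of all genes. DESeq2 called 3 of them, Opn1mw at an adjusted p of 0.00108, Arr3 at 0.00502 and Gnb3 at 0.0745, with 5.33% of all genes called. Without the lens-rich retinas the log2 fold changes were -0.60 for Opn1mw and -0.60 for Arr3 (adjusted p = 0.225 and 0.333 in edgeR), and without both doubtful libraries -0.52 and -0.55 (adjusted p = 0.488 for each). Guca1a had a log2 fold change of -0.24 (SE 0.17, edgeR adjusted p = 0.577), and -0.57 without the lens-rich retinas (adjusted p = 0.253). The remaining 5 genes lay between -0.17 (Cnga3) and 0.035 (Pde6h), with adjusted p from 0.588 to 0.972 in edgeR.

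In hyperoxia, KO-O2 and WT-O2 retinas were compared. No cone gene was called by edgeR, where 0.569% of all genes were higher and 0.704% lower in KO-O2 (1.27% in either direction), 0.32% in all without the lens-rich retinas and 0.0151% without both doubtful libraries. The 1 gene at an unadjusted p under 0.05 was Gnb3 (12.6% of all genes were), at 504 ± 82.1 CPM in KO-O2 and 657 ± 53.4 in WT-O2 (SD, n = 3). Its groups lay apart by a narrow gap, 598 CPM in KO-O2 mouse 2 and 602 in WT-O2 mouse 1. The log2 fold change was -0.38 (SE 0.12, edgeR adjusted p = 0.205), and by DESeq2, which called 5.71% of all genes, its adjusted p was 0.0174. Guca1a was at 251 ± 28.6 CPM in KO-O2 and 231 ± 19.9 in WT-O2, and Arr3 at 173 ± 29.2 and 195 ± 29.4 (SD, n = 3), differences below the larger SD of each pair. Besides Gnb3, only Cnga3 had groups that did not overlap, 7.50 to 8.17 CPM against 8.47 to 9.01, and 19.9% of all genes had such groups. Apart from Gnb3, the log2 fold changes lay between -0.22 (Pde6h) and 0.14 (Opn1mw), with adjusted p from 0.712 to 0.989 in edgeR.

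**Figure D3:**
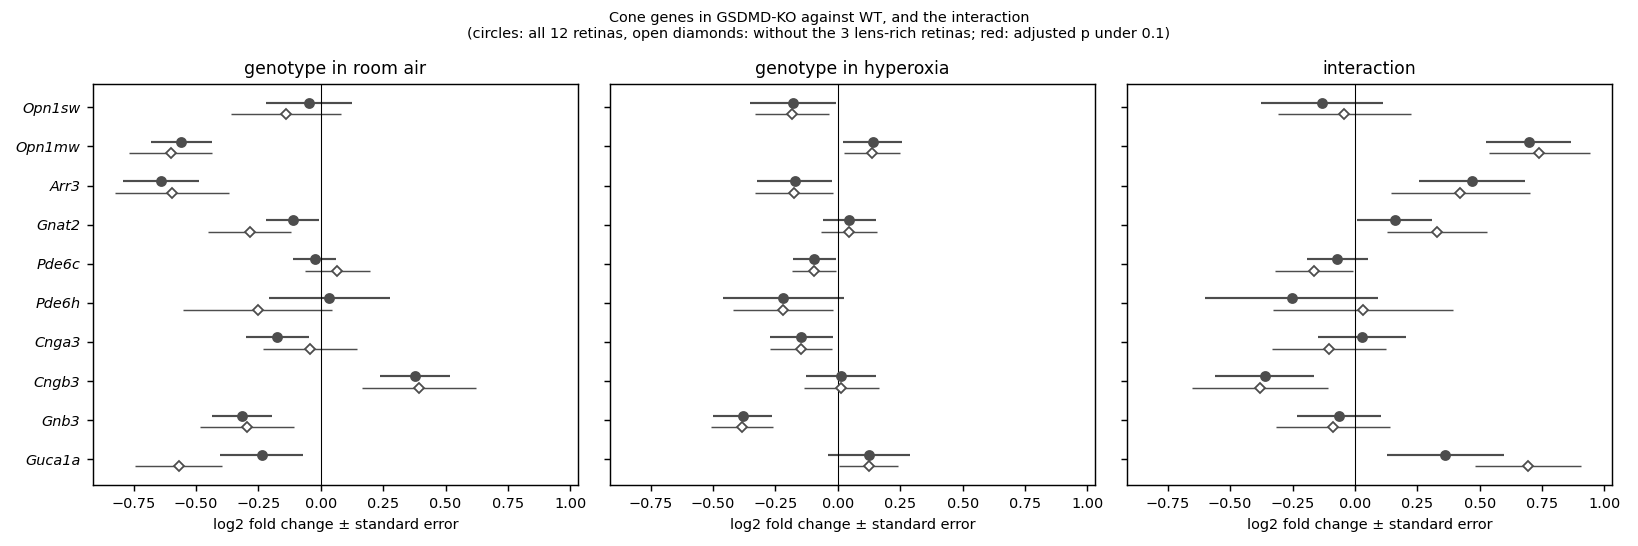
Log2 fold change (x axis, ± standard error) of the 10 cone genes in GSDMD-KO against WT in room air and in hyperoxia, and the interaction of genotype and hyperoxia, from all 12 retinas (circles) and without the 3 lens-rich retinas (open diamonds). Opn1mw and Arr3 lie at -0.56 and -0.64 in room air and at 0.14 and -0.17 in hyperoxia, and no gene had an adjusted p under 0.1.

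The interaction asked whether the response to hyperoxia differed between GSDMD-KO and WT retinas. It was called for none of the 10 genes by edgeR, with 0.00522% of all genes called higher (1 gene) and 0% lower. Opn1mw and Arr3, 2 of the 10, had an unadjusted p under 0.05, as did 10.6% of all genes. M opsin had a log2 fold change of -0.37 with hyperoxia in WT and 0.33 in GSDMD-KO, a difference of 0.70 (SE 0.17, edgeR adjusted p = 0.219). DESeq2 gave it an adjusted p of 0.00677, with 2.80% of all genes called, and without KO-O2 mouse 1 edgeR gave 0.80 (adjusted p = 0.0703). Without the lens-rich retinas the difference was 0.74 (adjusted p = 0.261 in edgeR), and without both doubtful libraries 0.65 (adjusted p = 0.567). Arr3 had a difference of 0.47 (SE 0.21, edgeR adjusted p = 0.468). For Guca1a, which fell in both genotypes, the difference was 0.36 (SE 0.23, edgeR adjusted p = 0.609), or 0.69 without the lens-rich retinas (adjusted p = 0.290). The remaining 7 genes lay between -0.36 (Cngb3) and 0.16 (Gnat2), with adjusted p from 0.549 to 0.974 in edgeR.

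The balance of the opsins was described by the share of S opsin in the counts of both opsins, which does not depend on the scaling of the library. In room air it was 58.2%, 48.0% and 53.7% for the WT mice and 69.5%, 61.1% and 54.2% for the GSDMD-KO mice, and after hyperoxia 56.1%, 63.6% and 62.5% for the WT mice and 56.5%, 56.4% and 53.2% for the GSDMD-KO mice. The groups overlapped, and the widest spread was in KO-RA. The means were 53.3% ± 5.11 for WT-RA, 60.7% ± 4.05 for WT-O2, 61.6% ± 7.66 for KO-RA and 55.4% ± 1.88 for KO-O2 (SD, n = 3). The 95% Wilson interval of a single retina, such as 57.5% to 58.8% in WT-RA mouse 1, covers counting error only and was narrow beside the spread between mice. With the lens-rich retinas left out, the WT-RA value was the 58.2% of mouse 1, and the KO-RA retinas left were at 69.5% and 61.1%.

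**Figure D4:**
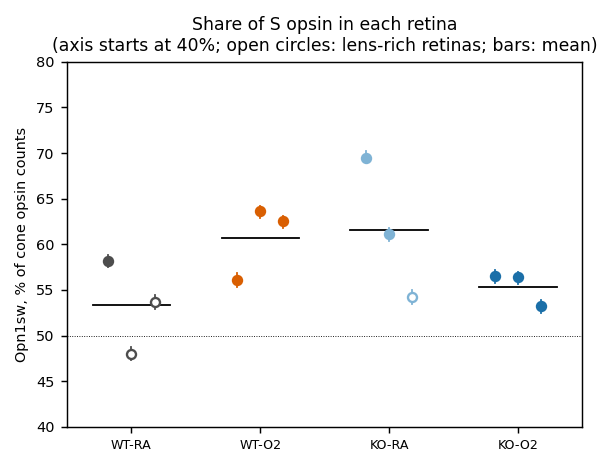
Share of Opn1sw in the summed counts of Opn1sw and Opn1mw (y axis in percent, starting at 40%) in each retina, with its 95% Wilson interval, the group mean as a bar, lens-rich retinas as open circles and a dotted line at 50%. The shares run from 48.0% in WT-RA mouse 2 to 69.5% in KO-RA mouse 1, and the 4 groups overlap. Counts were not divided by transcript length.

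Summed, the 10 genes were at 2526, 2325 and 2179 CPM in WT-RA, at 2153, 2130 and 2187 in WT-O2, at 1996, 1944 and 1895 in KO-RA and at 1879, 2100 and 1903 in KO-O2. The KO-RA retinas were below all WT-RA retinas, but as CPM of the library total the groups overlapped (1734 to 2145 and 1879 to 2269). The 15 genes of the rod phototransduction list, led by rhodopsin, summed to 77510 to 89440 CPM for WT-RA, 70100 to 80460 for WT-O2, 71880 to 79350 for KO-RA and 64120 to 68660 for KO-O2. Per 1000 rod counts there were 27.8 ± 0.719 cone counts for WT-RA, 28.2 ± 1.91 for WT-O2, 25.9 ± 1.72 for KO-RA and 29.3 ± 1.56 for KO-O2 (SD, n = 3). The lowest ratio, 23.9, was in KO-RA mouse 3, a lens-rich retina, and the highest, 30.8, was in KO-O2 mouse 2. Within the cone sum, Gnb3 took 18.7% to 21.1% in WT-RA and 28.0% to 32.4% in WT-O2, while Guca1a took 15.8% to 22.3% and 9.74% to 11.2%. As ON bipolar cells also use Gnb3 and rods also use Guca1a, the sum and its ratio to rod counts are not of cones alone.

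**Figure D5:**
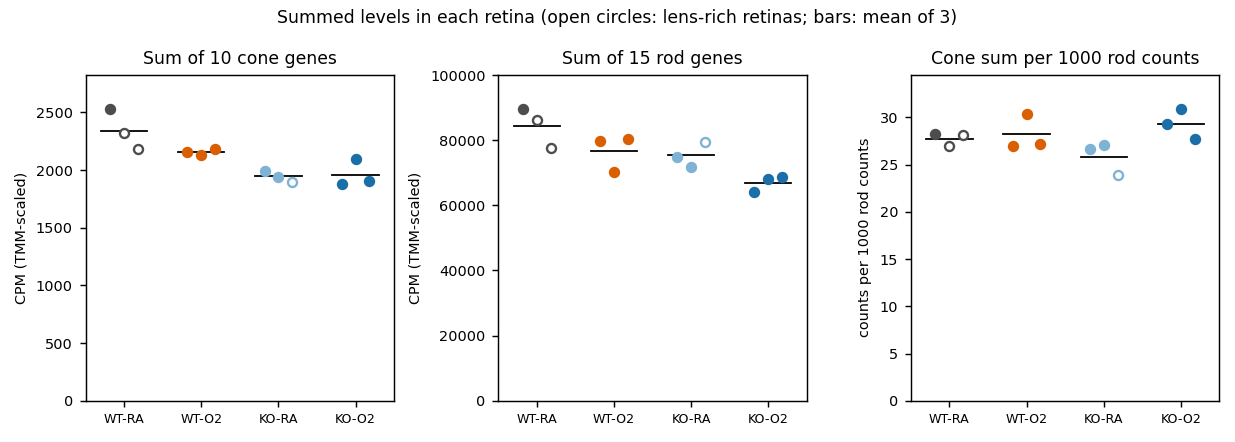
Summed level of the 10 cone genes and of the 15 rod genes in CPM (TMM-scaled), and cone counts per 1000 rod counts, in each retina (all axes from 0), with the group mean as a bar and lens-rich retinas as open circles. The ratio lies between 23.9 and 30.8 in all 12 retinas.

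The 10 genes were compared in pairs across retinas, and no such value was computed for pairs of other genes. Over the 45 pairs of genes the median Pearson correlation of log2 CPM across the 12 retinas was 0.04, with 4 pairs over 0.5 and 4 under -0.5. Opn1mw and Arr3 were the pair most alike (0.75, and 0.72 in deviations from the group means), and Pde6c and Guca1a the pair least alike (-0.87). All values come from the same 12 libraries and share their depth and scaling. The genes outside the list whose pattern was most like the mean of the 10 genes, among 12094 genes of at least 5 CPM, were Dand5 (Pearson correlation 0.92 over 12 retinas), Hgh1 (0.91), Sgta (0.91), 0610010K14Rik (0.90) and Akr7a5 (0.90). The members themselves, each of which is part of that mean, had correlations with it of -0.22 (Pde6c) to 0.69 (Cnga3).

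Other genes of the cone pathway were read from lists. Of 16 listed genes found in cones besides the 10, none was called with hyperoxia in WT (5.16% of all genes were). In GSDMD-KO 1 rose and 1 fell with hyperoxia (7.82% of all genes were called). Both belong to the complex that switches transducin off in cones and rods. Gnb5 rose from 816 ± 91.3 to 1142 ± 41.1 CPM (log2 fold change 0.48, edgeR adjusted p = 0.0271), and Rgs9bp fell from 161 ± 31.3 to 115 ± 2.68 CPM (-0.49, adjusted p = 0.0780, SD, n = 3). With the lens-rich retinas left out these were 0.53 and -0.56 (adjusted p = 0.0705 and 0.0882 in edgeR). Rgs9, of the same complex, was called in WT once the lens-rich retinas were left out, at 0.80 (edgeR adjusted p = 0.0426), and had 0.27 with them (adjusted p = 0.467). Guca1b, the partner of Guca1a as a calcium sensor, had a log2 fold change of -0.28 in WT (edgeR adjusted p = 0.277).

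Of 18 genes that govern cone fate and opsin choice, among them Thrb, the thyroid hormone receptor needed for M opsin, none was called in WT and 2 were called in GSDMD-KO with hyperoxia. Samd11, a transcriptional repressor in photoreceptors, rose from 693 ± 39.9 to 1094 ± 66.1 CPM (log2 fold change 0.66, edgeR adjusted p = 0.00843, or 0.0365 without the lens-rich retinas), and was also higher in KO-O2 than in WT-O2 by 0.48 (adjusted p = 0.0855, or 0.105 without the lens-rich retinas). Dio2, which activates thyroid hormone, fell from 20.8 ± 0.819 to 12.4 ± 3.87 CPM (-0.74, edgeR adjusted p = 0.0743, or 0.227 without the lens-rich retinas). Rxrg, a partner of the thyroid hormone receptor in cones, had a log2 fold change of -0.43 in WT (edgeR adjusted p = 0.205).

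No rod phototransduction gene of 15 was called in any of the 5 contrasts. With hyperoxia the medians of the list were -0.06 in WT and -0.07 in GSDMD-KO, beside -0.09 and -0.08 for the cone genes. The rod genes of smallest p were Sag, the rod arrestin, at -0.36 in WT (edgeR adjusted p = 0.164) and Pde6a at -0.34 in GSDMD-KO (edgeR adjusted p = 0.111). Among 19 genes of photoreceptor structure 3 rose in WT, Impg2 of the matrix around photoreceptors by 0.79, Crb1 of the outer limiting membrane by 0.67 and the cilium kinase Mak by 0.35 (edgeR adjusted p = 0.0322, 0.0913 and 0.0941). Leaving out the lens-rich retinas gave 1.21, 1.18 and 0.49 (adjusted p = 0.0426, 0.0517 and 0.143 in edgeR). None was called in GSDMD-KO. Of all genes, 3.11% rose in WT and 7.82% were called in GSDMD-KO. Crb1 was lower in KO-O2 than in WT-O2, at 64.6 ± 7.28 against 123 ± 21.5 CPM (SD, n = 3), which was -0.93 on the log2 scale (edgeR adjusted p = 0.0725, or 0.0804 without the lens-rich retinas).

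In the visual cycle, which restores the chromophore, Rlbp1 fell in both genotypes, by 0.65 in WT and 0.69 in GSDMD-KO (edgeR adjusted p = 0.0956 and 0.0639, or 0.0528 and 0.136 without the lens-rich retinas). Rdh11, a retinol dehydrogenase of photoreceptors, fell in GSDMD-KO from 42.8 ± 3.62 to 24.7 ± 1.71 CPM (SD, n = 3), which was -0.80 on the log2 scale (edgeR adjusted p = 0.00381, or 0.0278 without the lens-rich retinas), and had a log2 fold change of -0.23 in WT (adjusted p = 0.277). It was lower in KO-O2 than in WT-O2 by 0.56 on the log2 scale (edgeR adjusted p = 0.0476, or 0.102 without the lens-rich retinas), and its interaction was -0.57 (adjusted p = 0.220). Rlbp1 is also a gene of Mueller glia, the support cells of the retina, where 1 of 10 listed genes rose and 4 fell in WT and 2 rose and 3 fell in GSDMD-KO. Of all genes, 3.11% rose and 2.05% fell in WT, and 4.38% rose and 3.44% fell in GSDMD-KO.

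Transcripts of other cells moved with hyperoxia too, and their part in the cone values was not tested. Of 12 microglia genes 7 rose in each genotype, and of 10 endothelial genes 8 rose in WT and 7 in GSDMD-KO. Of all genes, 3.11% rose in WT and 4.38% in GSDMD-KO. The counts without the lens-rich retinas were 1 and 6 for microglia and 4 and 5 for endothelium. The summed microglia list was at 74.3 to 97.4 CPM (unscaled) for WT-RA, 163 to 228 for WT-O2, 89.3 to 90.7 for KO-RA and 156 to 211 for KO-O2. Of 11 retinal ganglion cell genes 3 fell in WT and 5 in GSDMD-KO, and of 12 amacrine and horizontal cell genes 3 and 1 fell. Of all genes, 2.05% fell in WT and 3.44% in GSDMD-KO. No gene of the 22 lens and 12 pigment epithelium genes was called by edgeR in any contrast. The median log2 fold change of the lens genes was -11.82 in WT and -6.47 in GSDMD-KO with hyperoxia. All lens-rich retinas were in the room air groups, and without them these medians were -2.73 and 1.82.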

How the data were processed

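RNA-seq of 12 retinas (3 mice in each of 4 groups) was used, and 12 lungs of the same series for a look at cone genes outside the eye. Per the labels, groups were genotype and exposure, and no replicate numbers were shared between groups. The authors sequenced the libraries at BGI, assigned reads to transcripts with kallisto and deposited expected counts (estimated counts) per gene made with tximport, whose setting was not given in the sources used here. The labels name the build mm10, while the study's methods name a later one. Of the nonzero retina values 2.197% were within 0.01 of a whole number, so these counts may have been scaled within a library, which changes levels more than comparisons.

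Counts were rounded and fitted for all 12 retinas in edgeR 4.0.16 (R 4.3.3) with TMM scaling, filterByExpr and 1 term per group. Contrasts were tested by quasi-likelihood, and p-values were adjusted after Benjamini and Hochberg over 19173 genes. A gene was called at adjusted p under 0.1 and p under 0.05, and where stated at a fold of at least 2. Standard errors were taken from each fold change and its F statistic. Alternatives were other scaling factors, no filter, DESeq2 1.42.0 and retinas left out, and the edgeR steps were tested on simulated data. Correlations used log2 CPM with a prior count of 2. Lengths are those of the main coding transcript in GENCODE on GRCm38, and promoters are from RefSeq, where 7 of the 10 genes matched.

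The members, the 16 other gene lists and the 3 lens-rich retinas were chosen with earlier results of these data known. Given are all 10 members in each contrast, some only within a range, and up to 3 genes of smallest p per list and contrast. Also given are Gsdmd, the levels of Trpm1 in WT and of Nyx in GSDMD-KO, and the 5 genes most like the mean of the members. Each mouse gave 1 retina library, so precision is limited by the number of mice, and for Cnga3 and Cngb3, at 190 to 381 counts per retina, also by counting error. Lists of ciliary and cornea epithelium, erythroid blood and skeletal muscle genes were counted as well: 1 of 11 tested (Krt12) rose in GSDMD-KO with hyperoxia, 2 of 5 fell there and 4 of 5 were lower in KO-O2 than in WT-O2, and 0 of 8 were called in edgeR.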

Additional observations from a re-analysis of the deposited data

Results flagged for a closer look

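In the lungs, which no comparison above used and where O2 stands for 85% oxygen from postnatal day 1 to 14 with collection on day 15, cone genes were near 0: all 10 genes are in the lung table, none exceeded 1.54 CPM of the library total in any lung, and 2 of them, Opn1mw and Pde6c, had 0 counts in all 12, which allows up to 0.104 CPM in the shallowest lung (3 counts). Some values nevertheless lay above all WT-RA lungs, and only values above were searched for. Guca1a was at 1.43 ± 0.128 CPM in WT-O2 lungs and 1.05 ± 0.173 in KO-O2 lungs, against 0.574 ± 0.135 in WT-RA lungs (SD, n = 3), which was 38 to 45 and 27 to 37 counts against 13 to 21. Pde6h was at 0.576 CPM in the WT-O2 lungs, 0.630 in the KO-RA lungs and 0.641 in the KO-O2 lungs, against 0.374 in those of WT-RA. Cnga3 was at 0.768 CPM in KO-RA lungs against 0.349 in WT-RA lungs. Opn1sw went the other way, at 0.347 CPM in WT-RA lungs (9.52 to 10.3 counts) against 0.0601 in WT-O2 lungs (1 to 2.3 counts). It was at 0.195 CPM in KO-RA lungs and 0.191 in KO-O2 lungs, also below all WT-RA lungs. Exons of Opn1sw overlap those of Calu, and exons of Pde6h those of Arhgdib, so that lung reads of these pairs may not be separable. The lung differences were not tested.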

How the results depend on the processing

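No member called with all 12 retinas changed direction in any of its 20 alternatives. Among all 990 comparisons of a member's fold change with an alternative, 48 changed sign, each in a contrast where that gene was not called by edgeR with all 12 retinas. Under library totals in place of TMM, which moved the median of all genes by 0.236 (WT), 0.051 (GSDMD-KO), -0.019 (genotype in hyperoxia), 0.165 (genotype in room air) and -0.186 (interaction), the sign changed to 0.14 for Gnat2, 0.061 for Cnga3 and 0.14 for Cngb3 with hyperoxia in WT, to 0.14 for Opn1sw, 0.051 for Gnat2 and 0.15 for Pde6c in room air, and to -0.024 for Gnat2 and -0.16 for Cnga3 in the interaction. For Cngb3 in KO-O2 against WT-O2 it became -0.003 with RLE factors, -0.005 with library totals, -0.001 with DESeq2 and -0.001 with lens genes removed. Without the lens-rich retinas it became -0.15 for Opn1sw and -0.33 for Pde6h with hyperoxia in WT, 0.067 for Pde6c and -0.25 for Pde6h in room air, and 0.033 for Pde6h and -0.10 for Cnga3 in the interaction. Without both libraries whose Gsdmd went against the label, chosen after seeing the data, it became -0.051 for Opn1sw in WT, -0.061 for Pde6h in room air, and 0.025 for Opn1sw, -0.04 for Cnga3 and 0.01 for Gnb3 in the interaction. With single retinas left out, values that crossed 0 ran from -0.051 to 0.17 (Opn1sw) and -0.043 to 0.37 (Pde6h) in WT, from -0.20 to 0.12 (Opn1sw), -0.17 to 0.048 (Arr3), -0.053 to 0.13 (Gnat2) and -0.35 to 0.079 (Pde6h) in GSDMD-KO, from -0.073 to 0.11 (Gnat2) and -0.08 to 0.12 (Cngb3) in hyperoxia, from -0.25 to 0.076 (Opn1sw), -0.079 to 0.021 (Pde6c) and -0.20 to 0.31 (Pde6h) in room air, and from -0.26 to 0.067 (Opn1sw), -0.13 to 0.002 (Pde6c), -0.073 to 0.11 (Cnga3) and -0.21 to 0.01 (Gnb3) in the interaction.

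Of the 10 genes, 3 were called with hyperoxia in each genotype. In WT the count was 5 with DESeq2, 3 with library totals (Pde6c in place of Arr3), 2 without a filter, 2 with the 2 groups alone, 1 without the lens-rich retinas, 1 without both doubtful libraries and 1 to 4 with single retinas left out. In GSDMD-KO it was 5 with DESeq2, 1 with library totals, 1 without a filter, 1 with the 2 groups alone, 1 without the lens-rich retinas, 0 without both doubtful libraries (edgeR) and 0 to 4 with single retinas left out. The count of 0 became 1 (genotype in hyperoxia), 3 (genotype in room air) and 1 (interaction) with DESeq2, and with single retinas left out it was 0 to 0, 0 to 0 and 0 to 1 in edgeR. The cone sum became 2110 CPM (library totals) and 2530 CPM (without the lens-rich retinas) in WT-RA and 2280 CPM (library totals) and 2220 CPM (lens genes removed) in WT-O2, and the rod sum under library totals became 76000 CPM for WT-RA and 69900 CPM for KO-O2. The causes were not tested. No paired analysis was possible because the labels give the mice no replicate numbers shared between groups. Cnga3 and Cngb3 had 190 to 381 counts per retina, where counting error is not small beside the spread between mice.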
